A study of Mus musculus with 7 samples.

Results

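miR-101a and miR-101b are a pair of mouse paralogues, each cut from its own hairpin. The 4 mature arms, listed as mmu-miR-101a-3p, mmu-miR-101a-5p, mmu-miR-101b-3p and mmu-miR-101b-5p and written here without the species prefix, were taken by name from 1966 mature miRNAs listed in every library, and all 4 were also among the 450 that passed the filter on low counts. The cells were mouse hepatocytes released from the liver by collagenase perfusion and pelleted at low speed, and their small RNAs were sequenced to ask what loss of ALAS does to them. ALAS (5-aminolevulinate synthase) starts heme synthesis and is made from Alas1 in most tissues and from Alas2 in red cell precursors. WT gave 3 libraries and ALAS12-KO gave 4. All 7 carry the treatment label TMX, which the labels do not spell out, so controls and mutants share it. The labels give no age, strain, allele or Cre driver, nor whether each replicate came from its own mouse, so p-values rest on a spread between libraries that may be technical.

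A miRNA is cut from its hairpin as a duplex, and 1 strand is kept in an Argonaute protein as the guide while the other is mostly lost. The guide finds target mRNAs mainly through its seed, bases 2 to 8 from the 5′ end. The 3p strand is the known guide of miR-101. It is abundant in liver, is often low in liver cancer, and is known for repressing Ezh2, the histone H3 lysine 27 methyltransferase of the Polycomb complex PRC2, and Mcl1, an inhibitor of cell death.

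The mature sequences are shown first because, as annotated, the paralogues differ in where the seed falls. They are RefSeq sequences on GRCm38.p6, written 5′ to 3′ with bases 2 to 8 in capitals.

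miR-101a-3p: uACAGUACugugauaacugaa

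miR-101b-3p: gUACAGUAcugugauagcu

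miR-101c: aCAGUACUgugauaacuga

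miR-101a-5p: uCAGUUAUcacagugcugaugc

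miR-101b-5p: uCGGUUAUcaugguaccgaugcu

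As annotated, miR-101b-3p starts 1 base earlier than miR-101a-3p, and the first 15 bases of miR-101a-3p are found again from base 2 of miR-101b-3p. Over the 18 bases that face each other, 17 are the same and the only substitution is A16G, counted from the 5′ end of miR-101a-3p with the miR-101b base last. The annotated seeds therefore differ by a shift of 1 base, and the seed letters of miR-101a-3p stand inside miR-101b-3p. The tables give counts per name and no start positions, so the base at which the miR-101b-3p reads began is not known. The 5p arms face each other over 22 bases, 17 of them the same, with A3G inside the seed and 4 more substitutions (C11U, A12G, G15A and U17C). Of the 1675 listed miRNAs with a RefSeq mature sequence, 0 others share bases 2 to 8 with any of the 4 arms. The red cell miRNA miR-144-3p shares bases 2 to 7 with miR-101a-3p, and it was rare, at a mean of 7.77 CPM (counts scaled to a common total of miRNA reads) in the WT libraries and 3.47 CPM in the mutant ones. miR-582-5p shares bases 2 to 7 with miR-101b-3p and had only 1 to 5 reads per library.

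The hairpins are shown next, with the 5p arm first and the 3p arm second in capitals, because the arm balance described further on is set within them.

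Mir101a hairpin: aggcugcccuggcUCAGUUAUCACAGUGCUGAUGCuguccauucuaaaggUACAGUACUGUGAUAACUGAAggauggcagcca

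Mir101b hairpin: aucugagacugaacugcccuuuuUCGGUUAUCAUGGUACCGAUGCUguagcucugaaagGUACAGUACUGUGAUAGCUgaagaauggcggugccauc

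On GRCm38 (mm10), Mir101a lies on the minus strand of chromosome 4 at 101346945 to 101347027, within an exon of the long noncoding RNA gene E130102H24Rik on the same strand. Mir101b lies on the plus strand of chromosome 19 at 29135279 to 29135375, within an intron of Rcl1, a gene for a ribosomal RNA processing protein, also on the same strand. Neither has another annotated miRNA gene within 100000 bases. The host transcripts were not measured here. The third locus, Mir101c on chromosome 9 (3038669 to 3038743, minus strand), gives the 19-base miR-101c, all of which is contained in bases 2 to 20 of miR-101a-3p. Reads given to miR-101c numbered only 6 to 22 per library, against 67770 to 171894 for miR-101a-3p, so adding them to miR-101a-3p left its fold change at 0.39 on the log2 scale.

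Over the libraries, total miRNA reads ran from 7719180 to 21962191, so 1 CPM stood for 7.72 to 22.0 reads. Hepatocyte miRNAs (6 markers, among them miR-122-5p and miR-192-5p) made up 616550 to 642898 CPM in WT and 587174 to 670989 CPM in ALAS12-KO, and none was at 0. RNA of other liver cells was present too. Both endothelial markers together stood at 35562 to 52472 CPM in WT and 10959 to 36485 CPM in ALAS12-KO, and the 6 leukocyte markers at 8010 to 10756 CPM and 2932 to 9772 CPM. The lowest value of both came from ALAS12-KO replicate 1. In such bulk samples fewer cells of a type and less RNA per cell cannot be told apart.

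miR-101b-3p was the more abundant guide strand and ranked from 6 to 9 among all miRNAs in the 7 libraries, while miR-101a-3p ranked from 15 to 19. The mature sequences are 19 to 23 bases long, so their CPM levels were compared with no correction for length. From highest to lowest, the ranges over the 7 libraries were 17311 to 22324 CPM for miR-101b-3p, 7827 to 9719 CPM for miR-101a-3p, 24.2 to 50.5 CPM for miR-101b-5p, 12.2 to 16.6 CPM for miR-101a-5p and 0.732 to 1.14 CPM for miR-101c. No neighbours in this order overlapped, so the order held in each library. The plot of levels by library shows the 4 arms.

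**Figure D1:**
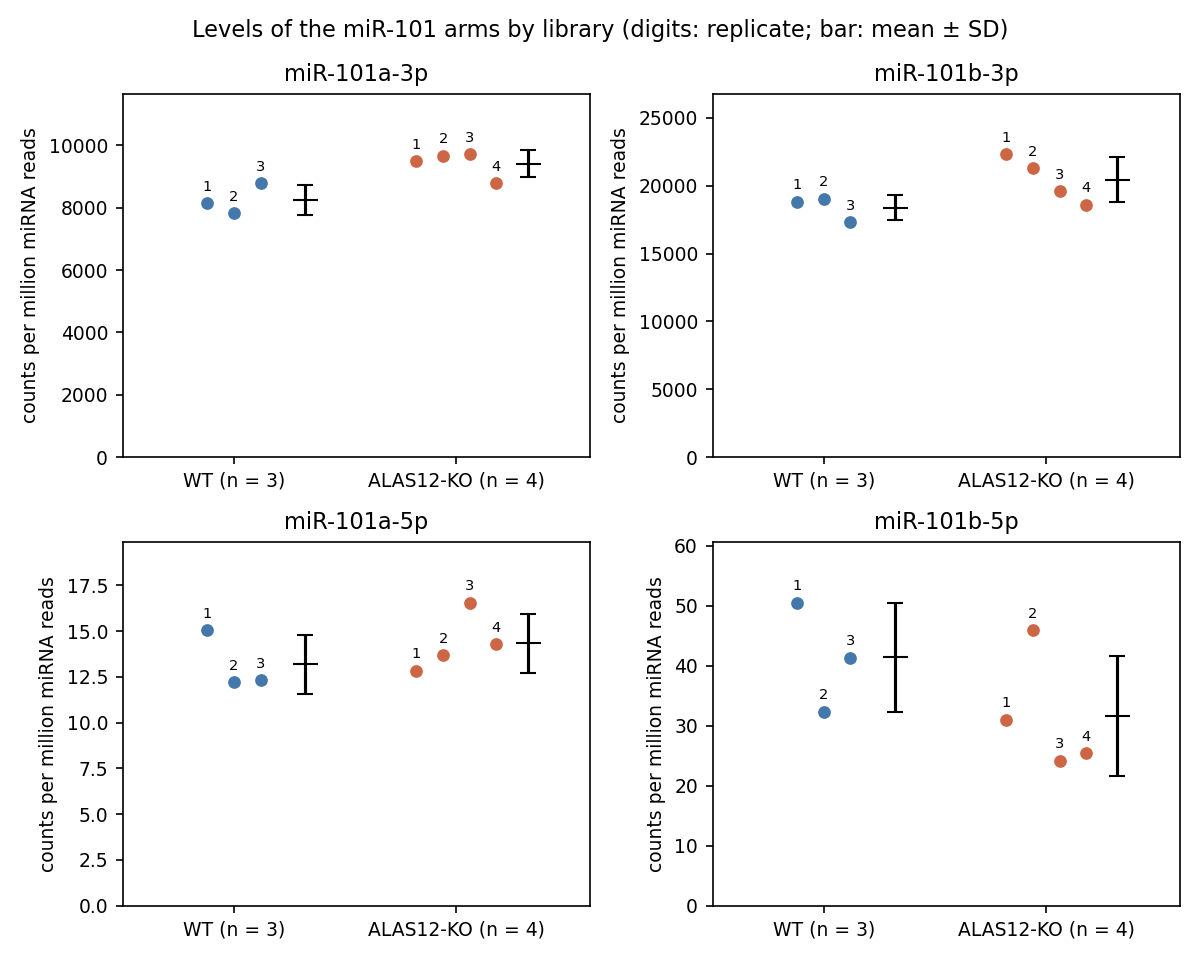
Levels of the 4 miR-101 arms in CPM, on linear axes from 0; each point is 1 library with its replicate number, and the bar beside each group is mean ± SD (WT n = 3, ALAS12-KO n = 4). The 4 ALAS12-KO libraries of miR-101a-3p lie at 8783 to 9719, above the WT range of 7827 to 8779, and the groups overlap for the other 3 arms.

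The first comparison asked whether the level of each arm differed between the genotypes. Both guide strands had higher means in ALAS12-KO, by 1.14-fold for miR-101a-3p and 1.11-fold for miR-101b-3p in CPM, and 0 of the 4 arms passed the adjusted threshold. miR-101a-5p was also higher on average, and miR-101b-5p was lower. edgeR called 0 of 450 miRNAs in this comparison (0%), with 84 at unadjusted p under 0.05 (18.7%) and 46 of these higher in ALAS12-KO (10.2%), so a call of 0 among the 4 arms is also the share found over all miRNAs. limma-voom called 0 as well, with 89 at unadjusted p under 0.05. DESeq2 called 21 (4.67%), none of them a miR-101 arm.

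miR-101a-3p, the guide strand from chromosome 4, stood at 8138, 7827 and 8779 CPM in WT replicates 1 to 3 and at 9493, 9660, 9719 and 8783 CPM in ALAS12-KO replicates 1 to 4. All 4 ALAS12-KO libraries were above all 3 WT libraries, although ALAS12-KO replicate 4 and WT replicate 3 differed by less than the counting error of either, whose 95% Poisson intervals were 8738 to 8829 and 8713 to 8846 CPM. The means were 8248 ± 486 CPM (SD, n = 3) and 9414 ± 431 CPM (SD, n = 4). On these library totals 5.33% of the tested miRNAs had ALAS12-KO wholly above WT, and 15.3% wholly below. With the TMM factors of edgeR, which set libraries to a common scale over most miRNAs, the log2 fold change was 0.39 ± 0.14 (SE), with a 95% interval of 0.07 to 0.70, an unadjusted p of 0.0225 and an edgeR adjusted p of 0.220. By p-value, 45 of the 450 miRNAs stood before it. On TMM-scaled CPM, ALAS12-KO replicates 1 to 4 stood at 11772, 10990, 8781 and 8555, and WT at 7503 to 7789. All ALAS12-KO values were again above WT, as for 10.9% of all tested miRNAs. The SD was 147 in WT and 1601 in ALAS12-KO, where replicates 1 and 2 stood furthest above WT.

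miR-101b-3p, the guide strand from the Rcl1 intron, stood at 18798, 19053 and 17311 CPM in WT and at 22324, 21277, 19578 and 18608 CPM in ALAS12-KO, each in replicate order. The groups overlapped, since ALAS12-KO replicate 4 lay between WT replicates 3 and 1, and the other 3 ALAS12-KO libraries were above all of WT. The means were 18387 ± 941 CPM (SD, n = 3) and 20447 ± 1669 CPM (SD, n = 4). The log2 fold change with TMM was 0.35 ± 0.18 (SE), with a 95% interval of −0.05 to 0.76 and an edgeR adjusted p of 0.298. On TMM-scaled CPM, ALAS12-KO replicates 1 and 2 stood at 27683 and 24206, above the WT range of 15357 to 18763. Replicates 3 and 4 lay within that range, at 17689 and 18123. The highest library, ALAS12-KO replicate 1, was also the one with the least endothelial and leukocyte signal, and without it the log2 fold change of miR-101b-3p was 0.20 (edgeR adjusted p = 0.434) and that of miR-101a-3p 0.28. In CPM miR-101a-3p was highest in ALAS12-KO replicate 3, at 9719. That library had the most endothelial (36485 CPM) and leukocyte (9772 CPM) signal of ALAS12-KO. The part of other cells' RNA in these values was not tested.

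Together the 4 arms made up 2.67% ± 0.0475 (SD, n = 3) of all reads given to miRNAs in the WT libraries and 2.99% ± 0.195 (SD, n = 4) in those of ALAS12-KO. The highest WT library had 2.70% and the lowest ALAS12-KO library 2.74%, so this sum did not overlap between the genotypes, by a narrow margin. Of single tested miRNAs, 5.33% had ALAS12-KO wholly above WT in CPM, and miR-101b-3p, the larger part of the sum, was not among them. The sum is nearly all guide strand, and its spread was wider in ALAS12-KO than in WT. No test was run on it.

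The passenger strands were rare. miR-101a-5p had 95 to 283 reads per library and stood at 15.0, 12.2 and 12.3 CPM in WT and at 12.8, 13.7, 16.6 and 14.3 CPM in ALAS12-KO. The groups overlapped in CPM, and for the lowest count, in WT replicate 3, the 95% Poisson interval of 9.96 to 15.0 CPM already spanned most of the range of both groups. The log2 fold change was 0.29 ± 0.18 (SE), with a 95% interval of −0.11 to 0.70 and an edgeR adjusted p of 0.364.

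miR-101b-5p, with 319 to 810 reads per library, had the opposite sign. It stood at 50.5, 32.4 and 41.3 CPM in WT and at 31.0, 46.0, 24.2 and 25.5 CPM in ALAS12-KO. Of the ALAS12-KO libraries, 3 were below the lowest WT library and replicate 2 was above the WT mean of 41.4 ± 9.09 CPM (SD, n = 3). The log2 fold change was −0.16 ± 0.32 (SE), with a 95% interval of −0.89 to 0.56 and an edgeR adjusted p of 0.791. Without WT replicate 1 it was 0.00417, so with TMM its sign rests on that library.

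**Figure D2:**
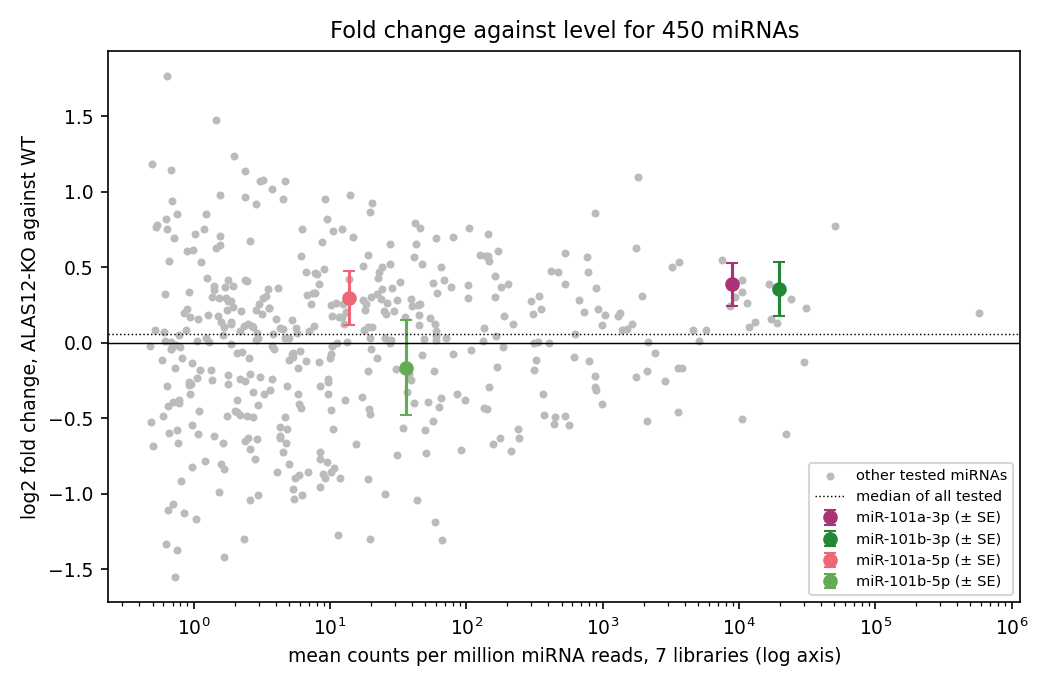
Log2 fold change of ALAS12-KO against WT (edgeR, TMM factors) over the mean level in CPM on a log axis, for 450 tested miRNAs; grey points are single miRNAs, coloured points are the miR-101 arms with ± SE, and the dotted line is the median of all tested, 0.06. The 3p arms at the right lie at 0.39 and 0.35, among other abundant miRNAs above the line, and miR-101b-5p at −0.16 lies below it.

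The size of these differences moved with the scaling, and the sign of each arm's difference did not. Over all miRNAs tested, the median log2 fold change was 0.06 with TMM and −0.12 with library totals. With library totals the log2 fold change was 0.19 for miR-101a-3p, 0.15 for miR-101b-3p, 0.12 for miR-101a-5p and −0.39 for miR-101b-5p. Relative to the median of all tested miRNAs, the difference for miR-101a-3p was 0.33 with TMM and 0.31 with library totals, and for miR-101b-3p 0.30 and 0.27. For miR-101b-5p it was −0.22 and −0.27. On TMM-scaled CPM the groups also did not overlap for miR-101a-5p, by a narrow margin (10.9 to 13.87 in WT and 13.91 to 15.9 in ALAS12-KO), where 10.9% of all tested miRNAs had ALAS12-KO wholly above WT.

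**Figure D3:**
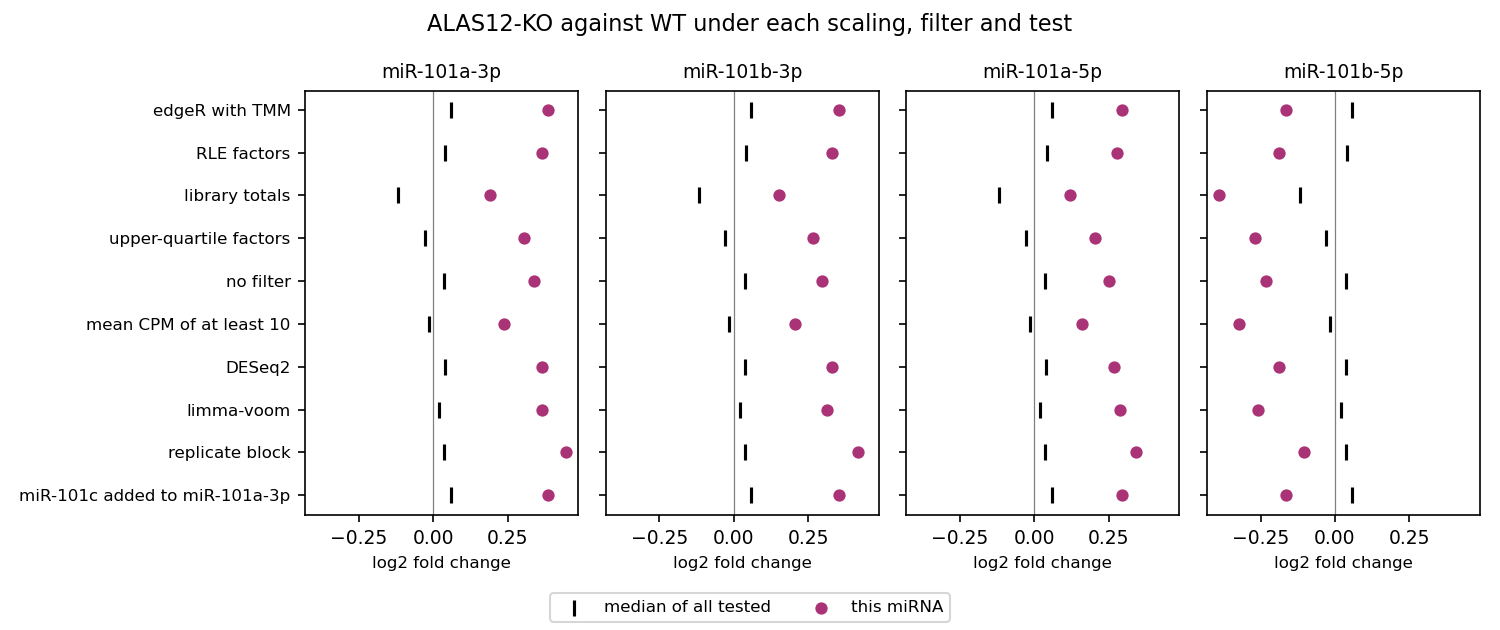
Log2 fold change of each miR-101 arm, ALAS12-KO against WT, under edgeR with TMM and each other scaling, filter and test (filled circles), with the median of all miRNAs tested under that setting (black ticks). The 3p arms and miR-101a-5p stay to the right of 0 and miR-101b-5p to its left, and library totals move circles and ticks together to the left.

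The second comparison was of the 5p strand against the 3p strand of each hairpin, a ratio that no library scaling can move. The 5p strand of both hairpins was scarce, at a geometric mean over libraries of 0.155% of the 3p reads for miR-101a and 0.178% for miR-101b. Of 130 hairpins with both arms tested, these were the 10th and the 11th lowest ratios of minor to major arm, where the median hairpin had 6.84%. limma called 0 of the 130 hairpins (0%), with 7 at unadjusted p under 0.05 (5.38%), and neither miR-101 hairpin was among the 7.

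For miR-101b, 5p reads were 0.269%, 0.170% and 0.239% of 3p reads in WT replicates 1 to 3 and 0.139%, 0.216%, 0.123% and 0.137% in ALAS12-KO replicates 1 to 4. All ALAS12-KO libraries except replicate 2 were below all of WT, and replicate 2 stood between WT replicates 2 and 3. The means were 0.226% ± 0.0507 (SD, n = 3) and 0.154% ± 0.0421 (SD, n = 4). The difference of the log2 ratio was −0.56 ± 0.26 (SE), with a 95% interval of −1.17 to 0.04, an unadjusted p of 0.0640 and a limma adjusted p of 0.716. Without ALAS12-KO replicate 2 the difference was −0.74 (limma adjusted p = 0.227). The 3 libraries with the highest ratios, WT replicates 1 and 3 and ALAS12-KO replicate 2, were also those with the largest shares of reads outside any miRNA, at 60.6%, 73.7% and 72.2%, against 50.9% to 59.2% in the other 4. In these 3 libraries the miR-101a ratio was 0.185%, 0.140% and 0.142%, in a range of 0.135% to 0.185% over all 7. The part of reads outside miRNAs in either ratio was not tested.

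For miR-101a the arm balance was closer between libraries. The 5p reads were 0.185%, 0.156% and 0.140% of 3p reads in WT and 0.135%, 0.142%, 0.170% and 0.163% in ALAS12-KO. The groups overlapped over nearly their whole range. The difference of the log2 ratio was −0.07 ± 0.16 (SE), with a 95% interval of −0.45 to 0.31 and a limma adjusted p of 0.906.

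The hairpins differed in how far libraries of 1 genotype lay apart. The chi-square of the 5p share per degree of freedom, which is about 1 where only counting error acts, was 3.24 in WT and 2.46 in ALAS12-KO for miR-101a, and 41.7 and 28.2 for miR-101b, which has more 5p reads. On the log2 scale the SD within groups was 0.18 for miR-101a and 0.35 for miR-101b. The median over the 130 hairpins was 0.35, so the spread of miR-101b was that of a middling hairpin, and 108 of 130 hairpins had a larger spread than miR-101a.

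**Figure D4:**
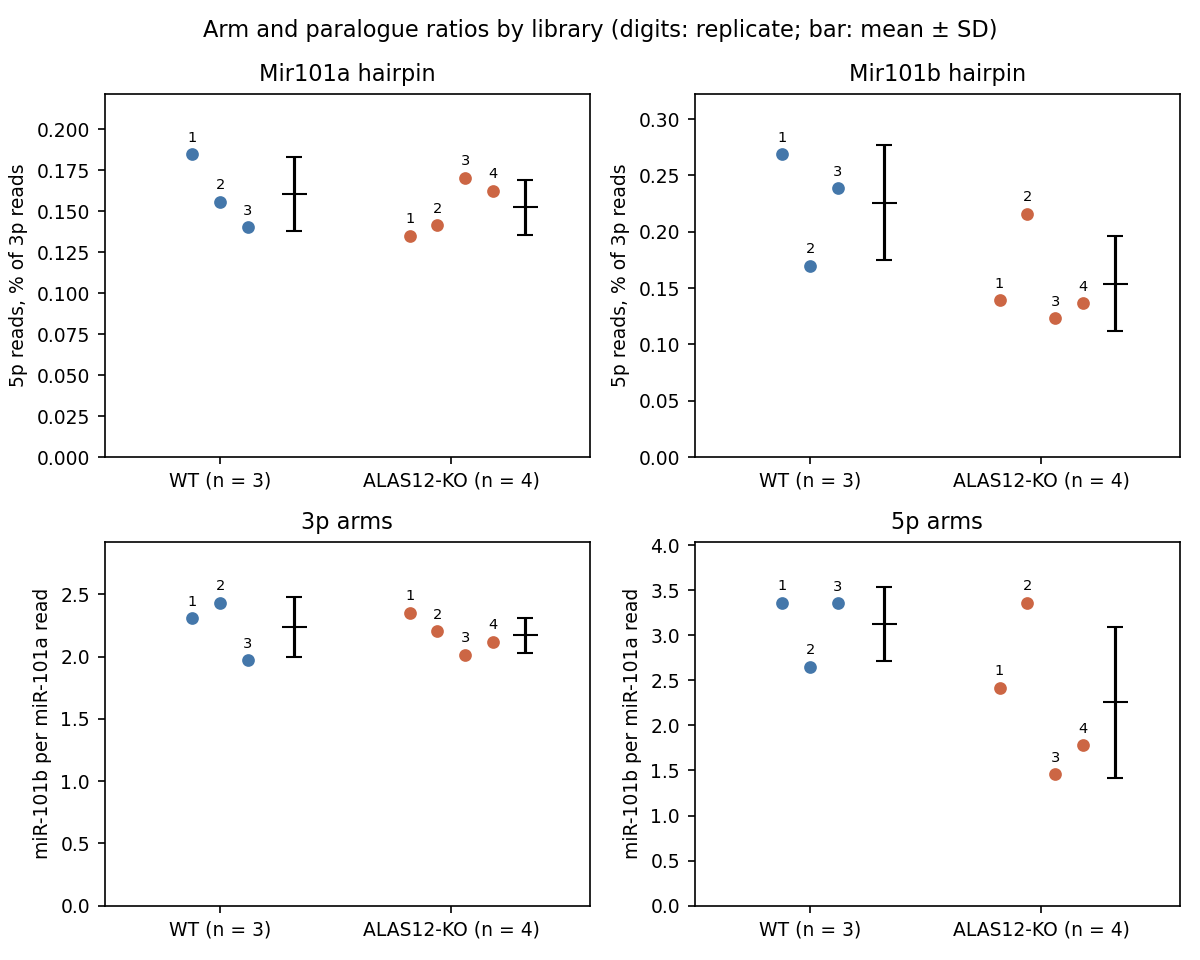
Ratios of read counts in each library, on linear axes from 0: above, 5p reads as a percentage of 3p reads for each hairpin; below, miR-101b reads per miR-101a read for the 3p arms and the 5p arms. Points are libraries with their replicate numbers and bars are mean ± SD (WT n = 3, ALAS12-KO n = 4); for miR-101b, replicate 2 of ALAS12-KO lies at 0.216% and the other 3 at 0.123% to 0.139%.

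The third comparison set the paralogues against each other. miR-101b-3p had 2.31, 2.43 and 1.97 reads for each miR-101a-3p read in WT and 2.35, 2.20, 2.01 and 2.12 in ALAS12-KO. The groups overlapped over most of their range, with means of 2.24 ± 0.239 (SD, n = 3) and 2.17 ± 0.142 (SD, n = 4). The difference of the mean log2 ratio was −0.04 (two-sided exact permutation p = 0.686 over 35 splits, whose smallest possible p is 0.0286), and it was 0.02 without WT replicate 2. The Mir101b hairpin gave 66.4% to 70.9% of all miR-101 reads over the 7 libraries. How reads were assigned where they end before the substitution A16G, and so match both paralogues, is not given in the sources used here, so this share is uncertain.

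The 5p arms, which differ at 5 bases, gave another ratio. There were 3.36, 2.65 and 3.36 miR-101b-5p reads per miR-101a-5p read in WT and 2.42, 3.36, 1.46 and 1.78 in ALAS12-KO. The ratio varied 2.30-fold over the 7 libraries, against 1.23-fold for the 3p arms. ALAS12-KO replicate 2 stood with WT replicates 1 and 3, and the other 3 ALAS12-KO libraries were below all of WT.

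The miRNAs whose levels lay nearest to each guide strand were sought among the 104 others with a mean of at least 100 CPM. The measure was the root mean square (RMS) difference of log2 CPM over the 7 libraries after each miRNA's own mean was taken away. Both guide strands varied little, so it is also small for any miRNA that varied little, and does not by itself show a shared rise and fall. For miR-101a-3p they were let-7c-2-3p (RMS difference 0.06), miR-30b-5p (0.08) and miR-30a-5p (0.08). For miR-101b-3p they were miR-192-5p (0.06) and miR-194-5p (0.06), both enriched in liver and gut, and miR-378a-5p (0.09). The median over the 104 was 0.27 for each guide strand. The paralogues themselves lay 0.11 apart, and 9 of the 104 were closer to miR-101a-3p and 8 closer to miR-101b-3p than that. All of these miRNAs share the same 7 libraries and totals, so their likeness is a description.

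**Figure D5:**
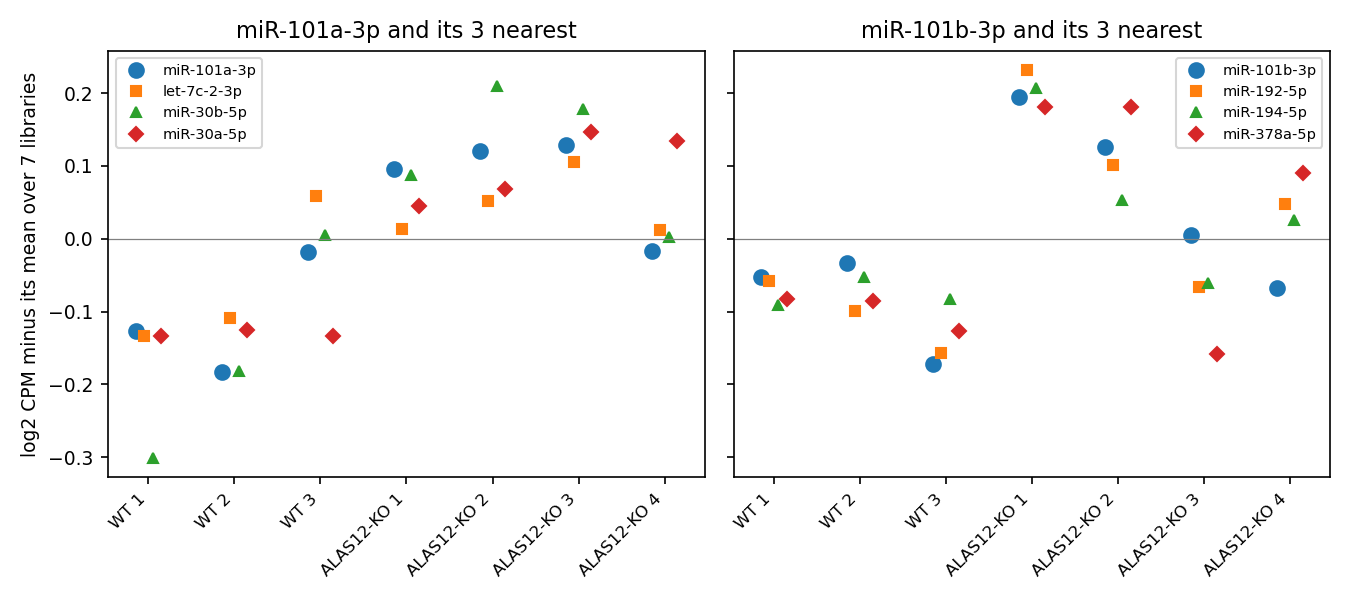
Log2 CPM of miR-101a-3p (left) and miR-101b-3p (right) in each of the 7 libraries after subtraction of the mean over libraries, with the 3 miRNAs of smallest root mean square difference from each; symbols are miRNAs. miR-101b-3p, miR-192-5p and miR-194-5p are all highest in ALAS12-KO replicate 1, and miR-101a-3p is highest in ALAS12-KO replicate 3.

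Other hepatocyte miRNAs and other miRNAs described to target Ezh2 were read from the same edgeR table. Of 12 hepatocyte-enriched miRNAs, 11 had a positive log2 fold change and 1 a negative one, 4 had an unadjusted p under 0.05 and 0 passed the adjusted threshold. Over all tested miRNAs, 56.0% were positive and 18.7% had an unadjusted p under 0.05. The median of the list was 0.36, against 0.06 over all tested. With library totals 10 of the 12 were positive, where 38.9% of all tested were, and the median was 0.16 against −0.12. With TMM the most abundant of the 12 were miR-122-5p at 0.20 ± 0.16 (SE), miR-148a-3p at 0.29 ± 0.16, miR-192-5p at 0.39 ± 0.18 and miR-30a-5p at 0.42 ± 0.12. In CPM miR-122-5p was not higher, with means of 578599 in WT and 576745 in ALAS12-KO. The values of 0.39 and 0.35 for the miR-101 guide strands lay close to the median of 0.36 for the 12. The 6 hepatocyte markers summed earlier are all on this list. Taken alone with TMM, all 6 were positive, at a lower median of 0.31, and only 1 reached an edgeR p below 0.05 before adjustment. With library totals 5 were positive and 1 negative, at a median of 0.12. In CPM the genotypes overlapped for each of the 6. Most tested miRNAs overlapped too, with 5.33% wholly above WT and 15.3% wholly below.

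Of 8 further miRNAs described to target Ezh2, 7 were tested, 6 had a positive log2 fold change, 1 had an unadjusted p under 0.05 and 0 passed the adjusted threshold, beside the same 56.0% and 18.7% over all tested. The median was 0.19, against 0.06 over all. With library totals 4 of 7 were positive, where 38.9% of all tested were, and the median was 0.01 against −0.12. miR-26a-5p had mean levels of 8843 CPM (WT) and 9788 CPM (ALAS12-KO), with a log2 fold change of 0.31 ± 0.11 (SE, edgeR adjusted p = 0.220), and miR-26b-5p had 0.27 ± 0.13. let-7a-5p had 0.16 ± 0.13 and let-7c-5p 0.14 ± 0.13. miR-124-3p, a neuronal miRNA, was too rare to be tested.

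Of the markers of other liver cells, 0 passed the adjusted threshold, and most had a negative log2 fold change where the miR-101 guide strands had a positive one. It was negative for 2 of 2 endothelial, 6 of 6 leukocyte, 4 of 5 mesenchymal, 4 of 4 red cell and 5 of 5 bile duct markers, and 44.0% of all tested miRNAs were negative. With library totals each of these counts was the same, while 61.1% of all tested were negative. Some markers are arms of the same hairpin, as both endothelial ones are, so the counts are not of independent miRNAs. Over the bile duct markers the log2 fold change with TMM ran from −1.31 ± 0.27 (SE) to −0.07 ± 0.28. There miR-141-3p was at −0.10 ± 0.18, so not all of them were clearly lower. Bile duct markers summed to 139 to 243 CPM in WT and 54.4 to 105 CPM in ALAS12-KO, mesenchymal markers to 4165 to 6971 and 1564 to 5730 CPM, and red cell markers to 20.5 to 27.2 and 9.11 to 20.3 CPM. None of these markers was at 0 in any library, and their part in the miR-101 differences was not tested.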

How the data were processed

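The deposited values are raw read counts for each mature miRNA, 1 file per library, as their whole numbers show. The submitters' processing notes name cutadapt, limma, mm10 and hg38 without a role or version; aligner, counter and the handling of reads that match several miRNAs: not given in the sources used here. Summary entries (reads outside miRNAs, 50.9% to 73.7% of reads; not aligned, 4.54% to 8.00%) were left out. CPM is per summed miRNA counts.

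All 1966 miRNAs entered edgeR 4.0.16 in R 4.3.3 (robust quasi-likelihood fit, TMM, filterByExpr with a minimum count of 10, Benjamini-Hochberg over the 450 tested, threshold 0.05). limma 3.58.1 tested log2 ratios of minor to major arm with 0.5 added, over 130 hairpins. DESeq2 1.42.0, limma-voom, other scalings, other filters, a block on replicate number and fits without each library in turn were alternatives. Reads have no molecular identifiers, so Poisson intervals cover counting error only. Within each genotype, every pair of libraries lay further apart than sampling noise. As chi-square per degree of freedom, the pairs ran from 113 to 195 in WT and from 152 to 1219 in ALAS12-KO. Of ALAS12-KO, replicates 3 and 4 were the closest pair and replicates 1 and 3 the furthest apart. Positions are from GENCODE M21.

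Members and lists were chosen with earlier results of these data known. Named were the 4 arms, miR-101c, miRNAs sharing a seed, the 3 nearest by pattern to each guide strand and up to 4 of the most abundant members of each list; miR-144-3p, miR-582-5p and miR-124-3p were added for their sequence or rarity. Spike-in RNAs were not analysed here, so a change shared by all miRNAs would not show.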

Additional observations from a re-analysis of the deposited data

Results flagged for a closer look

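In the 4 ALAS12-KO libraries, 10 measures of the miR-101 arms were screened with Dixon's test for a library that stands apart, which flags about 1 in 20 by chance. It flagged 1: the 5p reads of miR-101b as a percentage of its 3p reads. ALAS12-KO replicate 2 was the highest there, and 0.831 of the range of the 4 values lay between it and the next library, just past the critical ratio.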

How the results depend on the processing

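Under all 16 alternatives the log2 fold changes of miR-101a-3p (0.19 to 0.45), miR-101a-5p (0.12 to 0.40) and miR-101b-3p (0.15 to 0.43) stayed positive and short of the adjusted threshold. The alternatives are not independent checks, and adding the few miR-101c reads could hardly move any value. Adjusted p ran from 0.117 to 0.478 for miR-101a-3p. For miR-101b-5p the range was −0.47 to 0.00, and the sign changed only without WT replicate 1 (0.00417); over the libraries left out it ran from −0.47 to 0.00417. The arm ratio difference of miR-101b ran from −0.76 to −0.42 over 10 alternatives, with adjusted p from 0.227 to 0.956, and that of miR-101a from −0.16 to 0.04 over the libraries left out, with a change of sign without WT replicate 1 (0.0361). The log2 ratio of miR-101b-3p to miR-101a-3p differed by −0.13 to 0.02 over the libraries left out, with a change of sign without WT replicate 2 (0.0229). The number of miRNAs called over the whole table was 0 with edgeR and TMM, 2 with library totals, 13 with no filter, 21 with DESeq2, and 0 to 1 with 1 library left out (1 without ALAS12-KO replicate 2); the cause was not tested. None of these calls was a miR-101 arm.

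The replicate numbers were not taken to pair the samples, since the deviations of same-numbered libraries from their group means correlated at −0.02, −0.48 and 0.03. Some differently numbered pairs correlated more, up to 0.55 for WT replicate 3 with ALAS12-KO replicate 2, and the reason was not tested. With a replicate block, 0 miRNAs were called, with 60 at unadjusted p under 0.05, and the log2 fold changes were 0.45 for miR-101a-3p and 0.42 for miR-101b-3p (edgeR adjusted p = 0.344 for both). In that block ALAS12-KO replicate 4 has no WT partner, so the arm ratio differences equal those of the fit without that library. Depth limits mainly miR-101a-5p and miR-101c.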
